A study of Homo sapiens with 6 samples.

Results

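The E2 ubiquitin-conjugating enzymes whose symbol begins with UBE2 and the ubiquitin-specific proteases (USPs) were followed on expression arrays of a human kidney cell line transfected with IMP1 constructs. Members were all probe sets to which the platform annotation gives a single gene symbol that starts with UBE2, or with USP and a digit, and 1 Y-linked USP was left out. The rule used names only and no measured value. It took 84 symbols on 220 of the 54675 probe sets of the array, which carries 19775 symbols in all. The UBE2 family had 32 symbols on 81 probe sets and the USP family 52 symbols on 139 probe sets, and all 84 symbols matched a RefSeq gene ID. By RefSeq biotype 26 UBE2 symbols and 45 USP symbols were protein-coding, besides USP6NL, which encodes a GTPase-activating protein and no protease. The other 6 symbols of each family are antisense, divergent or pseudogene transcripts such as UBE2D3-AS1 and USP32P2. A further 9 probe sets that list a family symbol beside another symbol were not used.

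Total RNA was hybridised to 6 one-colour arrays, 2 for each of 3 transfections of the same unnamed line. The mock cells received an empty vector, the hIMP1 wt cells a wild-type construct of human IMP1, and the hIMP1 Dmut cells a construct labelled Dmut, a term that the labels do not explain. IMP1 is the mRNA-binding protein encoded by IGF2BP1. The titles number the arrays of each group 1 and 2 without saying what the number stands for. The labels give no time after transfection and do not name separate cultures, and the p-values below rest on array-to-array spread that may be technical.

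Ubiquitin is attached to proteins in a relay in which an activating enzyme (E1) loads ubiquitin onto an E2, and the E2 passes it to a substrate with the help of a ligase (E3). The E2 often sets which chain is built and therefore whether the substrate goes to the proteasome, is sorted in endosomes or takes part in DNA repair. USPs are the largest family of deubiquitinases, the proteases that trim or remove these chains again.

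Intensities were used on the log2 scale after adding an offset of 9.04, and probe sets whose mean log2 value reached 5.19, the median over the array, were kept. Median intensities per array lay between 26.7 and 33.7, and 3' over 5' control ratios were 1.03 to 1.17 (GAPDH) and 1.44 to 1.67 (ACTB). Over the 27307 kept probe sets, arrays with the same number correlated at 0.970 to 0.980 and arrays of the same group at 0.963 to 0.964. Arrays that share neither group nor number correlated at 0.96 to 0.968, so arrays of a group were no more alike than these. The 2 kept probe sets of IGF2BP1 differed from mock by 0.03 to 0.51 on the log2 scale (limma adjusted p = 1 in both groups). Where these probe sets lie relative to the constructs was not examined, so they do not check the labels. Of 16 kidney epithelium markers 13 were on the array and 5 were kept (EYA1, KRT8, KRT18, PAX8 and WT1), and the summed intensity of the list was 2130 to 2400. Of 8 blood markers 2 were kept (CD3E and HBB), with sums of 88.9 to 158. Of 7 fibroblast and endothelial markers 2 were kept (COL1A1 and PECAM1), with sums of 165 to 300.

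The filter kept 174 member probe sets of 73 genes. Of these, 67 probe sets of 29 genes were UBE2 and 107 probe sets of 44 genes were USP. The 46 member probe sets that were not kept read between 0.378 and 58.9 and are reported by this range only. They include all probe sets of UBE2DNL, UBE2E2-DT and UBE2U, and of USP2-AS1, USP3-AS1, USP26, USP27X-DT, USP29, USP30-AS1, USP46-DT and USP51. UBE2D1, UBE2D2, UBE2D3, UBE2L3, UBE2M, UBE2W, USP6, USP10, USP32 and USP41 had no probe set of their own by the naming rule and were not analysed here. Intensities below are those of the brightest kept probe set of a gene, lowest to highest over the 6 arrays, unless another is named. Each probe set binds with its own efficiency, so these readings are not compared between genes.

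Among the broad-range E2s, which serve many ligases, UBE2E1 read 5290 to 6270, UBE2E2 685 to 966, UBE2E3 1740 to 2090 and UBE2D4 228 to 285. The pair that works with the anaphase-promoting complex in mitosis was measured by single probe sets, with UBE2C, which starts chains on its substrates, at 1600 to 2530 and UBE2S, which extends them, at 2680 to 3730. For the DNA damage E2s, UBE2A (1140 to 1400) and UBE2B (1220 to 1450) are the RAD6 enzymes that modify histone H2B and PCNA, and UBE2N (2580 to 3400) builds Lys63-linked chains together with UBE2V2 (999 to 1550). UBE2T, the E2 of the Fanconi anaemia pathway, read 836 to 1380. The probe set of UBE2NL, a transcript nearly identical in sequence to UBE2N, read 237 to 394 and may share signal with it.

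Of the E2s that build chains for degradation, UBE2G1, which extends chains for cullin-RING ligases, read 1330 to 1510, UBE2K 860 to 1170, UBE2R2 345 to 571 and UBE2H, partner of the CTLH ligase, 280 to 374. Those of endoplasmic reticulum (ER) degradation, in which misfolded proteins are pulled back to the cytosol, are UBE2G2 (355 to 636) and the membrane-anchored UBE2J1 (483 to 806) and UBE2J2 (412 to 612). UBE2F, an E2 for NEDD8, read 417 to 608 and UBE2L6, the E2 for the interferon-induced modifier ISG15, read 30.9 to 84.8. UBE2Z, which accepts ubiquitin and FAT10 from UBA6, read 428 to 563, UBE2Q1 742 to 846, UBE2Q2 743 to 1000, UBE2QL1 264 to 362 and the large hybrid E2/E3 enzyme UBE2O 74 to 156. The antisense UBE2D3-AS1 read 8.32 to 69.7 and the pseudogenes UBE2Q2P13 and UBE2Q2P16 18.1 to 74.3 and 112 to 168.

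Among the USPs that act on free chains and at the proteasome, USP14 read 2180 to 2570, USP13 335 to 490 and USP5 89.8 to 114. The proteases tied to p53, MDM2 or MYC were USP7 (1030 to 1480), USP28 (349 to 526), USP36 (220 to 342), USP42 (270 to 327) and USP2 (46.2 to 78.3). USP1, which removes ubiquitin from FANCD2 and PCNA with its partner WDR48, read 3320 to 3710, and the other WDR48 partners USP12 and USP46 read 140 to 189 and 345 to 421. The homologous recombination protease USP11 read 678 to 957 and USP3, which acts on histone H2A, read 406 to 511.

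Of the chromatin proteases, USP22 of the SAGA coactivator read 1040 to 1380, USP16 1050 to 1320, USP21 331 to 451, USP49 138 to 189 and USP27X 86.7 to 167. USP27X, USP22 and USP51 are close in sequence and their probe sets may share signal. In endocytosis and signalling, USP9X read 2520 to 3610, USP34 640 to 730, USP47 542 to 636, USP8 339 to 449, USP25 363 to 469 and USP4 271 to 360. USP33 read 1100 to 1280, its relative USP20 11.3 to 69.6, USP19, which has an ER-anchored form, 321 to 597 and the mitochondrial USP30 226 to 289. The ISG15 protease USP18 read 125 to 165, the splicing factor USP39, which has lost protease activity, 431 to 599, and the mitotic proteases USP37 and USP44 132 to 194 and 127 to 153. Members without a listed role were USP24 (330 to 542), USP31 (147 to 237), USP35 (31.2 to 89.4), USP38 (363 to 542), USP40 (73 to 129), USP43 (33.4 to 55.3), USP45 (84.9 to 212), USP48 (623 to 862), USP6NL (124 to 204) and USP32P2 (382 to 675), and USP53 and USP54, long listed as inactive, read 145 to 202 and 186 to 254.

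**Figure D1:**
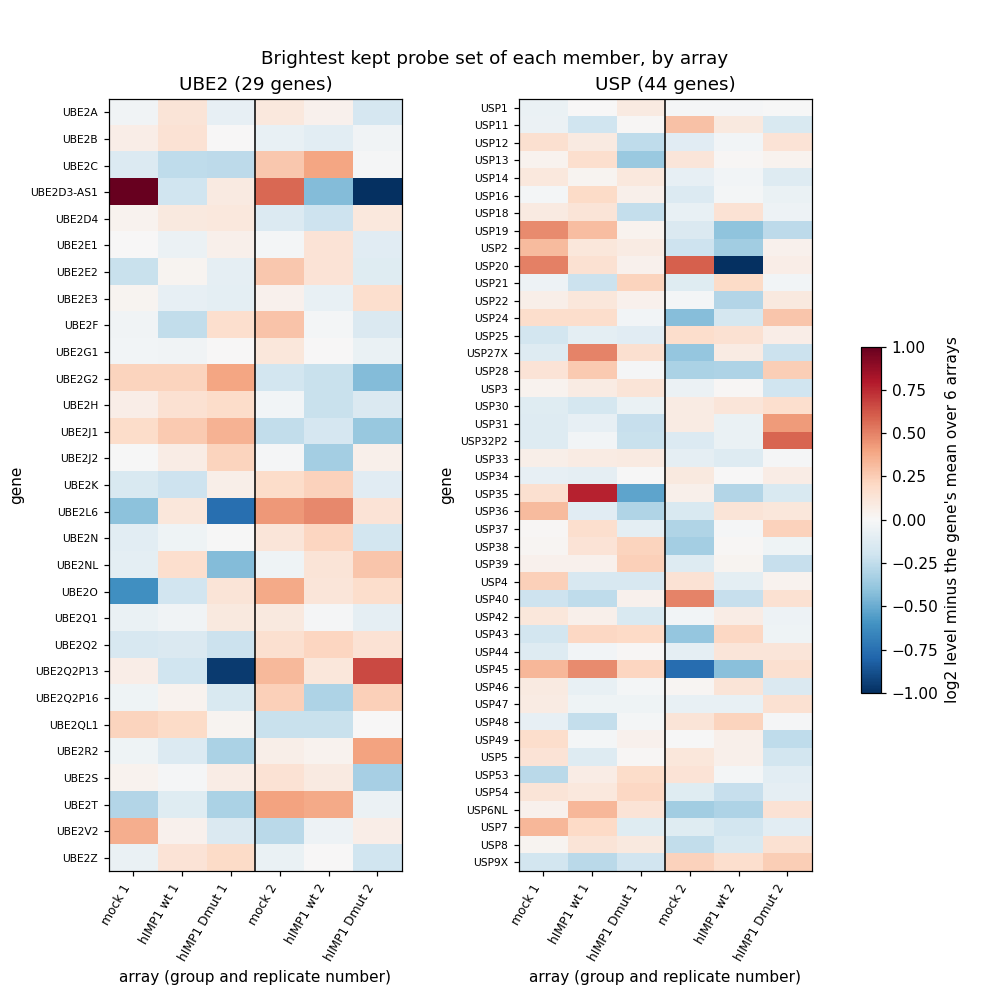
Each row is the brightest kept probe set of a gene, 29 UBE2 genes on the left and 44 USP genes on the right, and each column an array, with the 3 arrays numbered 1 left of the black line and the 3 numbered 2 right of it. Colour is the log2 level minus the mean of the gene over the 6 arrays, with the scale ending at 1 in either direction; UBE2G2 and UBE2J1 are red left of the line and blue right of it, and USP9X the reverse, while UBE2T and UBE2C are reddest on the mock and hIMP1 wt arrays numbered 2.

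The first question was whether either construct altered the families relative to empty vector. No member probe set of either family passed an adjusted p of 0.05 in hIMP1 wt minus mock, where 2 of 27307 probe sets (0.00732%), both of the heat shock gene HSPA6, did so. The same held for hIMP1 Dmut minus mock, where 2 probe sets (0.00732%), again HSPA6, passed, and for hIMP1 wt minus hIMP1 Dmut, where 0 (0%) passed. In limma an unadjusted p under 0.05 was reached in hIMP1 wt minus mock by 1 UBE2 and 1 USP probe set, against 1.03% of all kept probe sets. In hIMP1 Dmut minus mock it was reached by 2 UBE2 and 0 USP probe sets (1.42% of all), and in hIMP1 wt minus hIMP1 Dmut by 1 UBE2 and 0 USP probe sets (1.23% of all). At the median standard error a probe set had to differ by 0.62 on the log2 scale to reach even an unadjusted p of 0.05. The group fit had no term for the replicate number, so differences between numbers enter these standard errors. Both construct comparisons use the same mock arrays, and their values are given side by side and not related to each other.

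The families as a whole lay near zero. In hIMP1 wt minus mock 34 UBE2 probe sets were higher and 33 lower, with a median log2 change of 0, and the USP median was -0.02 (45 higher, 62 lower), beside -0.01 for all kept probe sets, of which 47.6% were higher. For hIMP1 Dmut minus mock the UBE2 median was -0.02 (28 higher, 39 lower) and the USP median 0.02 (57 higher, 50 lower), beside 0.01 for all (51.8% higher). Between the constructs, hIMP1 wt minus hIMP1 Dmut, the UBE2 median was 0.02 (35 higher, 32 lower) and the USP median -0.06 (38 higher, 69 lower), beside -0.02 for all (45.9% higher). Scaling by array medians moved the median of all probe sets between the constructs from -0.02 to 0.10 and turned the sign of 3 USP medians, to 0.03, -0.05 and 0.06. Relative to all kept probe sets the USP median between the constructs stayed at -0.04 to -0.06 under every scaling run. Taken by itself, this USP median was -0.015 by the brightest probe set of each gene. With an array left out it ranged from -0.08 to -0.016. Arrays of the groups did not overlap for 11 UBE2 probe sets (16.4%, with 21.3% of all kept probe sets) in hIMP1 wt minus mock, 9 (13.4%, with 23.6%) in hIMP1 Dmut minus mock and 9 (13.4%, with 22%) between the constructs. For USP these counts were 20 (18.7%), 26 (24.3%) and 25 (23.4%). These shares are below or near those of the whole array.

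**Figure D2:**
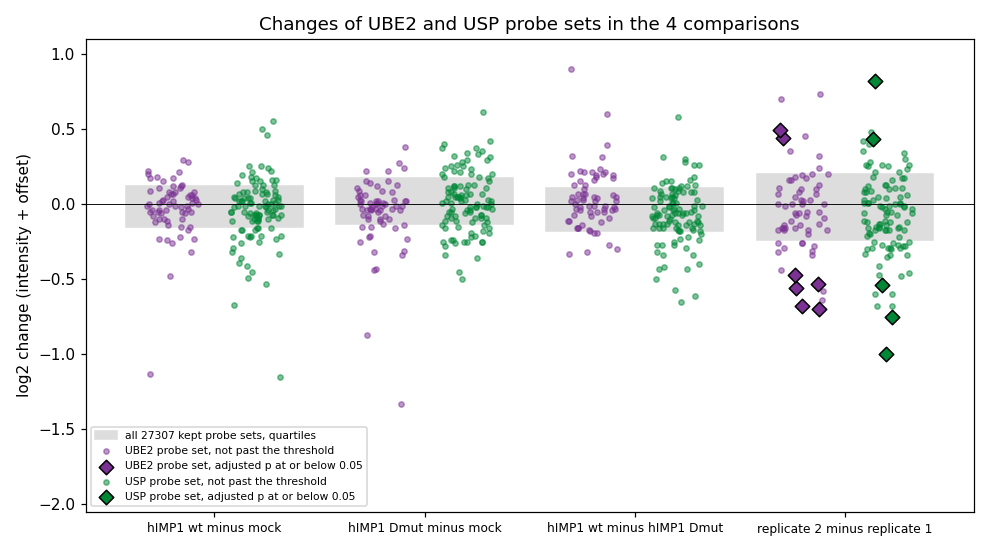
Points are log2 changes of the 67 UBE2 (purple) and 107 USP (green) kept probe sets in the 4 comparisons, and grey bars span the quartiles of all 27307 kept probe sets. Diamonds mark an adjusted p at or below 0.05 (limma, Benjamini-Hochberg); there are none in the 3 group comparisons, and 7 UBE2 and 5 USP diamonds for the replicate number.

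Only 3 member probe sets had an unadjusted p under 0.05 in a group comparison, and limma gave each an adjusted p of 1. The first is UBE2D3-AS1, an antisense transcript of the UBE2D3 locus, which read 69.7 and 46.5 in mock, 23.6 and 18.7 with hIMP1 wt, and 30.7 and 8.32 with hIMP1 Dmut. Both mock arrays lay above all 4 construct arrays, an order whose share over all kept probe sets was not counted. The lowest reading was below the offset. The log2 change was -1.13 ± 0.47 (SE) with hIMP1 wt and -1.33 ± 0.47 (SE) with hIMP1 Dmut. UBE2D3 itself was not analysed here.

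The probe set 221949_at of UBE2D4 read 80.3 and 79.9 in mock, 75 and 90.1 with hIMP1 wt, and 33.8 and 46.6 with hIMP1 Dmut. The hIMP1 Dmut arrays lay below the other 4, by -0.87 ± 0.30 from mock and with hIMP1 wt higher by 0.90 ± 0.30 (SE, log2). The 4 brighter probe sets of UBE2D4 differed from mock by 0.15, 0.08, -0.03 and 0.02 with hIMP1 Dmut, so the probe sets of this gene disagree.

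USP20, a relative of USP33 that binds the VHL protein, read 64.7 and 69.6 in mock, 48.8 and 11.3 with hIMP1 wt, and 44.5 and 45.3 with hIMP1 Dmut. Mock was higher than every construct array, an order whose share over all kept probe sets was likewise not counted. The low hIMP1 wt mean came mainly from the array numbered 2. The change was -1.15 ± 0.47 with hIMP1 wt, which was -0.40 without that array, and -0.50 ± 0.47 with hIMP1 Dmut (SE, log2).

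**Figure D3:**
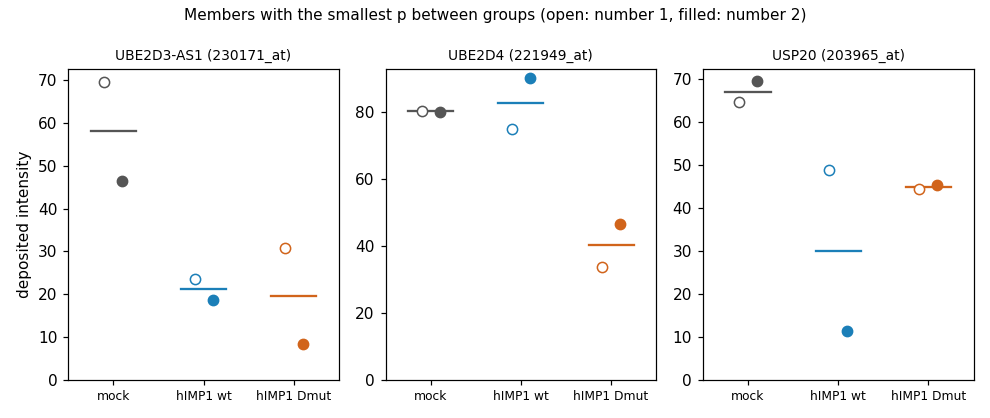
Deposited intensities on a linear axis from 0 for the 3 member probe sets with an unadjusted p under 0.05 in a group comparison; open points are arrays numbered 1, filled points arrays numbered 2, and lines group means. UBE2D3-AS1 and USP20 are highest in mock, and the UBE2D4 probe set is lowest with hIMP1 Dmut.

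By brightest probe set, the further UBE2 genes with the largest moderated statistics in hIMP1 wt minus mock were all small. UBE2F was at -0.26 ± 0.21, with its other 3 probe sets at 0.12, 0.09 and 0.08, and UBE2E3 was at -0.11 ± 0.17. The pseudogene UBE2Q2P16 was at -0.23 ± 0.26. On the higher side UBE2NL was at 0.22 ± 0.25, UBE2N at 0.07 ± 0.18, UBE2Z at 0.13 ± 0.20 and UBE2L6 at 0.28 ± 0.41, which was -0.14 without the mock array numbered 1 (SE, log2; limma adjusted p = 1 for each). UBE2L6 read 41.6 on that array, against 82.1 on the other mock array. Leaving the array out made the replicate numbers unequal between the groups. Compared number by number, the UBE2L6 change kept its sign, at 0.52 (number 1) and 0.04 (number 2).

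For hIMP1 Dmut minus mock, by brightest probe set, no UBE2 gene passed the threshold. UBE2S was at -0.22 ± 0.18, UBE2C at -0.21 ± 0.24, UBE2A at -0.16 ± 0.17 and UBE2T at -0.25 ± 0.26 (SE, log2). The second probe set of UBE2A was at 0.02. UBE2T was at 0.10 without the mock array numbered 2, a run that left the replicate numbers unequal between the groups. Within the numbers UBE2T was at -0.02 (number 1) and -0.47 (number 2). The low hIMP1 Dmut mean of UBE2S came from a single array, 2680 against 3550 on the other. On the higher side UBE2O was at 0.27 ± 0.33, which was -0.23 without the mock array numbered 1, UBE2D4 at 0.15 ± 0.21 and UBE2J2 at 0.15 ± 0.20. UBE2Z was at 0.06 ± 0.20 and turned to -0.01 under scaling by array medians.

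Between the constructs UBE2L6 had the largest difference among UBE2 genes by brightest probe set. It read 63.6 and 84.8 with hIMP1 wt and 30.9 and 64.9 with hIMP1 Dmut, so the groups overlapped, and the difference was 0.60 ± 0.41. UBE2A was at 0.21 ± 0.17, UBE2N at 0.18 ± 0.18 and UBE2T at 0.32 ± 0.26, while UBE2J2 was at -0.27 ± 0.20, UBE2D4 at -0.16 ± 0.21, UBE2F at -0.14 ± 0.21 and UBE2Q2P16 at -0.18 ± 0.26 (SE, hIMP1 wt minus hIMP1 Dmut).

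Among USPs, USP27X read 105 and 86.7 in mock, 167 and 123 with hIMP1 wt, and 131 and 98.4 with hIMP1 Dmut. The hIMP1 wt arrays lay above both mock arrays, at 0.55 ± 0.28, and the hIMP1 Dmut arrays overlapped with mock, at 0.24 ± 0.28 (SE, log2; limma adjusted p = 1). The protease USP43 read 40 and 33.4 in mock and 45 to 55.3 on the construct arrays, at 0.50 ± 0.32 with hIMP1 wt and 0.37 ± 0.32 with hIMP1 Dmut. USP4, a protease of TGF-beta signalling, read 360 and 338 in mock and 271 to 312 on the construct arrays, at -0.32 ± 0.20 and -0.25 ± 0.20, and its other probe set gave -0.29 and -0.16. For USP43 and USP4 both mock arrays lay outside the range of the 4 construct arrays. The share of all kept probe sets with this order was not counted, and both comparisons use the same mock arrays.

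USP13, a relative of the free-chain protease USP5, showed how far probe sets of a gene can part. Its probe set 226902_at read 175 and 210 in mock and 242 and 293 with hIMP1 wt, a change of 0.46 ± 0.23, while the brightest, 205356_at, read 447 and 473 in mock and 490 and 439 with hIMP1 wt, a change of 0.01 ± 0.21. With hIMP1 Dmut they were at 0.20 ± 0.23 and -0.25 ± 0.21 (SE, log2).

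Other USP genes with leading statistics were USP38 (0.24 ± 0.21 with hIMP1 wt, 0.25 ± 0.21 with hIMP1 Dmut), USP16 (0.16 ± 0.17 with hIMP1 wt), USP40 (-0.39 ± 0.30 with hIMP1 wt) and USP11 (-0.17 ± 0.20 with hIMP1 wt). The other probe sets of USP38 were at -0.16 and -0.53 with hIMP1 wt, and the other one of USP40 at 0.19. For hIMP1 Dmut minus mock USP8 was at 0.23 ± 0.20, the pseudogene USP32P2 at 0.31 ± 0.25 and USP35 at -0.45 ± 0.40. The USP32P2 value came from a single array, 675 against 382 on the other, and was -0.09 without it. USP11 was 0 without the mock array numbered 2, and within the numbers it was at -0.14 (number 1) and -0.20 (number 2). Between the constructs USP35 was at 0.58 ± 0.40, USP18 at 0.28 ± 0.23, USP13 at 0.26 ± 0.21, USP27X at 0.31 ± 0.28, USP20 at -0.65 ± 0.47, USP40 at -0.34 ± 0.30, USP32P2 at -0.22 ± 0.25 and USP22 at -0.16 ± 0.19. Without the hIMP1 wt array numbered 2, USP20 was at 0.10 and USP22 at 0.04, and without the hIMP1 Dmut array numbered 2, USP32P2 was at 0.18 (SE, hIMP1 wt minus hIMP1 Dmut).

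The arrays also differ by their number within each group, and here members did pass the threshold. Comparing the 3 arrays numbered 2 with the 3 numbered 1, with a term for each group, limma called 7 of 67 UBE2 probe sets (10.4%) and 5 of 107 USP probe sets (4.67%), where 5.71% of all kept probe sets were called, 2.81% higher and 2.9% lower. Of the UBE2 probe sets 5 were lower (UBE2G2 with 2, UBE2J1, UBE2K and UBE2H) and 2 higher (UBE2T and UBE2C) on the arrays numbered 2. Of the USP probe sets 3 were lower (USP36 with 2 and USP19) and 2 higher, both of USP9X. Family medians were -0.06 for each family (28 UBE2 probe sets higher and 39 lower, 42 USP probe sets higher and 65 lower), beside -0.02 for all (48.2% higher), and they became 0.045 and 0.046 under scaling by array medians. Under that scaling the calls were 1 UBE2 probe set, UBE2L6, which is none of the 7, and 3 USP probe sets, those of USP36 and the 229573_at of USP9X. Without the intensity trend no probe set of the array was called. Leaving out 1 array changed the number of calls in the same direction for both families and for all kept probe sets. There were fewer calls without a mock or hIMP1 wt array and more without an hIMP1 Dmut array. With a term for each group, the array then left alone in its group adds nothing to this comparison. These runs therefore rest on the remaining groups.

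The E2s of ER degradation read lower on the arrays numbered 2 by brightest probe set, 3 of 3, with 2 called. Of all kept probe sets 48.2% were higher and 2.9% were called lower. The median log2 change of the 3 genes was -0.53, and -0.42 to -0.54 under the other scalings. Under scaling by array medians none of the 3 was called. This is 1 of several role lists, all chosen with earlier results of these data known, and the list was not tested. Other lists also leaned by number. USPs tied to p53, MDM2 or MYC were lower in 4 of 5 (median -0.25). Those of endocytosis and signalling were higher in 5 of 6 (median 0.09). UBE2G2 was called on 2 probe sets. The probe set 209042_s_at read 564 in mock, 566 with hIMP1 wt and 636 with hIMP1 Dmut on the arrays numbered 1, and 424, 412 and 355 on those numbered 2. The probe set 209041_s_at read 329, 346 and 357 on the arrays numbered 1, and 225, 203 and 197 on those numbered 2. All 3 arrays numbered 2 lay below all 3 numbered 1 on both. The changes were -0.56 ± 0.13 (SE, limma adjusted p = 0.0297) and -0.70 ± 0.14 (limma adjusted p = 0.0165). Its other kept probe sets were at -0.31 ± 0.13 (limma adjusted p = 0.18) and, for a dim one, 0.07 ± 0.31.

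UBE2J1, the membrane-anchored E2 of the same route, read 717, 756 and 806 in mock, hIMP1 wt and hIMP1 Dmut on the arrays numbered 1, and 529, 559 and 483 on those numbered 2, without overlap. The change was -0.53 ± 0.12 (SE, limma adjusted p = 0.028). Its other 4 kept probe sets were also lower, at -0.34, -0.44, -0.17 and -0.08, none past the threshold. UBE2J2 was at -0.20 ± 0.13 by its brightest probe set and at -0.11 and -0.58 by the others, none past the threshold.

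UBE2T was higher on the arrays numbered 2, with 850, 954 and 836 in mock, hIMP1 wt and hIMP1 Dmut on those numbered 1 and 1380, 1360 and 999 on those numbered 2. The change was 0.49 ± 0.12 (SE, limma adjusted p = 0.0362), with 0.70 in mock, 0.51 with hIMP1 wt and 0.25 with hIMP1 Dmut. UBE2C, the chain-starting E2 of mitosis, read 1750, 1610 and 1600 on the arrays numbered 1 and 2320, 2530 and 1910 on those numbered 2, a change of 0.44 ± 0.12 (SE, limma adjusted p = 0.0478). The numbers did not overlap for either gene, and each gene is read by a single kept probe set. UBE2S, which works with UBE2C, was at -0.06 ± 0.13.

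The windows of 250 bases before the RefSeq transcription start are shown for UBE2G2 and UBE2J1, each called lower, and for UBE2T, called higher. They come from RefSeq on GRCh38.p14, all 3 on the minus strand, UBE2G2 at chr21:44801821-44802070, UBE2J1 at chr6:89352723-89352972 and UBE2T at chr1:202341937-202342186. Capitals mark matches on either strand to the CCAAT box, to CCACG (which with that box forms the ER stress element), to TGACGTG (bound by the ER stress factor ATF6) and to TTTGAA (a motif of cell cycle genes). Of the 9 called symbols 6 had a window, and these 3 were picked from them. Whether the genes share regulation was not tested.
UBE2G2: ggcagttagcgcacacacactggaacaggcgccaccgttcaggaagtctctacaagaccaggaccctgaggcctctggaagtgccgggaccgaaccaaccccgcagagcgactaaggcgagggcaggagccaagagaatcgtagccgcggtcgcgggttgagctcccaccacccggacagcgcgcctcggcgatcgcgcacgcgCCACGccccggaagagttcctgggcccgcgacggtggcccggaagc
UBE2J1: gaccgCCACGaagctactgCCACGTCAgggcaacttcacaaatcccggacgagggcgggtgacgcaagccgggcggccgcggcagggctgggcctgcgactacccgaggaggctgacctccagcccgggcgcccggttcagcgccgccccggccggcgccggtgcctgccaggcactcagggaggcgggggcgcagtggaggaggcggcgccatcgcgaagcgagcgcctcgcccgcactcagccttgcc
UBE2T: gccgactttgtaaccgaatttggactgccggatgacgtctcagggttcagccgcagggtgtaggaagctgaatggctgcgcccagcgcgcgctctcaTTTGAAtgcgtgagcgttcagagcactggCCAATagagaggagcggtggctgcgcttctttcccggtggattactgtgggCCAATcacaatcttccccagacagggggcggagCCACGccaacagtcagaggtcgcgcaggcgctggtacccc
UBE2G2 holds CCACG at 46 bases before the start, and UBE2J1 holds CCACG at 245 and 231, the second overlapping a reverse-strand TGACGTG at 230. UBE2T holds CCAAT at 124 and 73, TTTGAA at 153 and CCACG at 40 bases before the start. The full ER stress element, which joins both by a spacer of 9 bases, is in none of the 3 windows and in 0.074% of 35116 promoter windows. CCAAT is in 32% of those windows, CCACG in 33.5%, TTTGAA in 13.3% and TGACGTG in 1.68%. A match only describes the letters and is not evidence of binding.

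UBE2K, an E2 that builds Lys48-linked chains by itself, had probe sets that parted. The probe set 202346_at read 936, 992 and 991 on the arrays numbered 1 (mock, hIMP1 wt, hIMP1 Dmut) and 651, 719 and 729 on those numbered 2, a change of -0.47 ± 0.11 (SE, limma adjusted p = 0.0314). The brighter 225179_at was at 0.20 ± 0.13 and 202347_s_at at -0.26 ± 0.12. For UBE2H, 221962_s_at read 252, 282 and 207 on the arrays numbered 1 and 119, 164 and 171 on those numbered 2, a change of -0.68 ± 0.17 (SE, limma adjusted p = 0.0404). The other 4 probe sets of UBE2H were at -0.26, 0.05, -0.13 and 0.17, so the call rests on that probe set.

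Some UBE2 genes leaned by number without passing the threshold. UBE2L6 read 41.6, 63.6 and 30.9 on the arrays numbered 1 and 82.1, 84.8 and 64.9 on those numbered 2, a change of 0.70 ± 0.25 (SE, limma adjusted p = 0.115). UBE2Q2 read 771, 778 and 743, and 962, 1000 and 955, a change of 0.35 ± 0.11 (SE, limma adjusted p = 0.0865). The numbers did not overlap for either gene. UBE2QL1 was at -0.29 ± 0.14. In all, arrays of different number did not overlap for 22 UBE2 probe sets (32.8%) and 34 USP probe sets (31.8%), beside 29.3% of all kept probe sets.

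**Figure D4:**
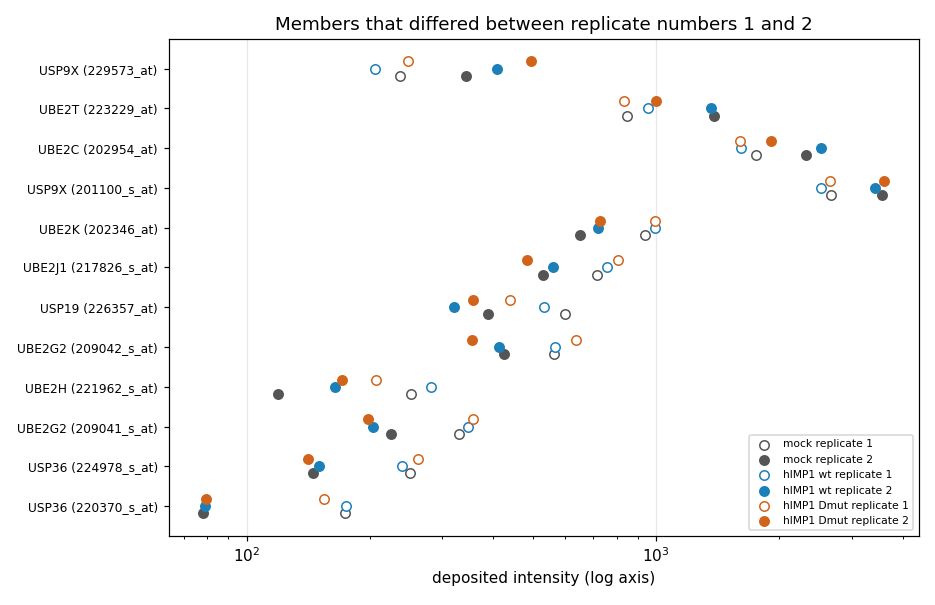
Deposited intensities on a log axis for the 12 member probe sets called between replicate numbers, with open points for arrays numbered 1, filled points for arrays numbered 2 and colour for the group. Open and filled points separate in every line, with the filled points to the left for UBE2G2, UBE2J1, UBE2K, UBE2H, USP36 and USP19 and to the right for UBE2T, UBE2C and USP9X.

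USP36, the nucleolar protease that stabilises MYC, had the largest lower change. Its probe set 220370_s_at read 174, 175 and 154 in mock, hIMP1 wt and hIMP1 Dmut on the arrays numbered 1 and 77.9, 78.9 and 79.6 on those numbered 2. The change was -1.0 ± 0.18 (SE, limma adjusted p = 0.0116), with means of 167 ± 11.7 against 78.8 ± 0.882 (SD, n = 3 arrays). A second probe set, 224978_s_at, read 250, 239 and 262, and 145, 150 and 141, a change of -0.75 ± 0.15 (SE, limma adjusted p = 0.0169). The brightest probe set of USP36, 227093_at, did not follow, with 342, 252 and 220 on the arrays numbered 1 and 245, 300 and 296 on those numbered 2 (0.06 ± 0.17).

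USP9X, a large protease with many substrates that include the survival protein MCL1, was the USP called higher. Its brightest probe set, 201100_s_at, read 2680, 2520 and 2660 on the arrays numbered 1 and 3560, 3420 and 3610 on those numbered 2, a change of 0.43 ± 0.11 (SE, limma adjusted p = 0.041). The probe set 229573_at read 237, 205 and 248, and 342, 409 and 493, a change of 0.82 ± 0.14 (SE, limma adjusted p = 0.0108). The probe set 201099_at, was at 0.26 ± 0.11, and a dimmer one, 230543_at, lay the other way at -0.60 ± 0.22 (limma adjusted p = 0.123), with 130, 165 and 124, and 118, 67.6 and 85. Arrays of different number did not overlap on any of the 4.

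USP19 read 597, 532 and 438 on the arrays numbered 1 and 387, 321 and 356 on those numbered 2, a change of -0.54 ± 0.13 (SE, limma adjusted p = 0.0348), and its dim second probe set was at 0.35 ± 0.26. USP45 read 191, 212 and 176, and 84.9, 110 and 169, a change of -0.68 ± 0.20 (SE, limma adjusted p = 0.0708), with its other kept probe sets at -0.47 and -0.60. In USP45 the hIMP1 Dmut arrays differed least. USP7 was at -0.28 ± 0.12, USP54 at -0.29 ± 0.14, USP25 at 0.26 ± 0.12, USP48 at 0.23 ± 0.12 and the mitochondrial USP30 at 0.25 ± 0.13, none past the threshold, and the second probe set of USP30 was at -0.48 ± 0.14.

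**Figure D5:**
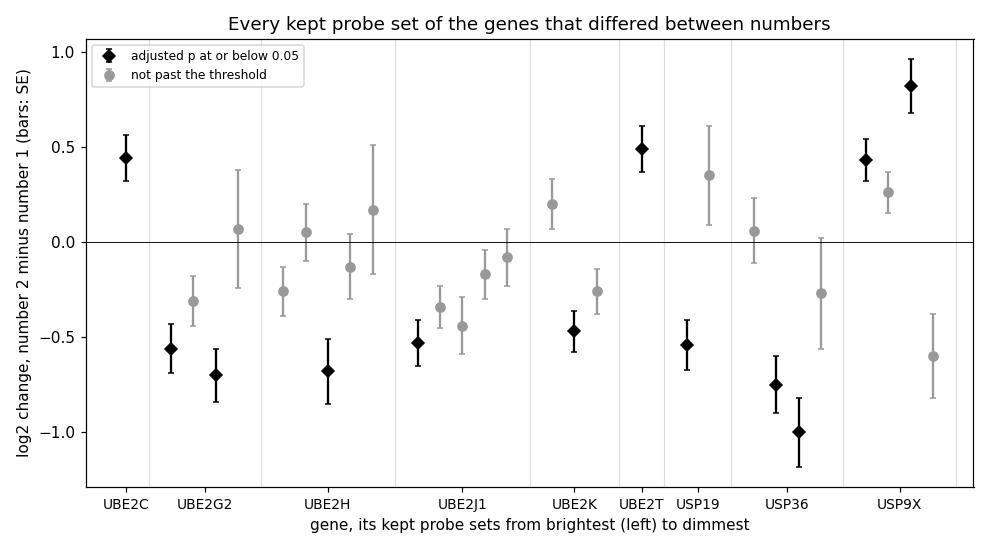
Log2 change of arrays numbered 2 minus arrays numbered 1 for every kept probe set of the 9 genes with a called probe set, brightest first within a gene, with bars of 1 standard error; black diamonds passed an adjusted p of 0.05 and grey points did not. All 5 probe sets of UBE2J1 lie below zero, while UBE2G2, UBE2K, UBE2H, USP19, USP36 and USP9X have points on both sides.

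Signs often differed between probe sets of a gene, and the share over all genes of the array was not counted. Between groups the median absolute change of a family was 0.08 to 0.12, with a median SE of 0.23 to 0.24. Many of these signs therefore rest on changes smaller than their standard error. For the replicate number, all kept probe sets shared a sign in 8 of the 16 UBE2 genes with more than 1 kept probe set and in 10 of 31 such USP genes. In hIMP1 wt minus mock these counts were 5 and 11, in hIMP1 Dmut minus mock 1 and 11, and between the constructs 2 and 11. Of the called genes with more than 1 kept probe set, only UBE2J1 had all of them on 1 side. UBE2C and UBE2T have 1 kept probe set each, so no disagreement could show. What the number stands for is not in the labels, and its part in these differences was not tested.

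The other genes of the pathway, by brightest probe set, gave the same picture between groups. None of the 4 ubiquitin genes (1 kept), 8 activating enzymes (5 kept), 8 other E2s (8 kept), 30 other deubiquitinases (29 kept) or 8 USP cofactors (8 kept) had a called member in a group comparison. UBB, a polyubiquitin gene, was at -0.10 ± 0.17 with hIMP1 wt and -0.11 ± 0.17 with hIMP1 Dmut, and UBA1, the main ubiquitin E1, at 0.13 ± 0.16 and -0.11 ± 0.16. YOD1, a deubiquitinase that works with the ATPase VCP, was at 0.37 ± 0.23 and 0.58 ± 0.23, and BRCC3, the Lys63-specific enzyme of the BRCA1-A complex, at -0.18 ± 0.20 and -0.46 ± 0.20 (SE, log2; limma adjusted p = 1 for each). CDC34, the founding SCF E2, was at 0.04 ± 0.20 and -0.26 ± 0.20.

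For the replicate number, 1 of these genes was called, where 5.71% of all kept probe sets were called. It was ATXN7, the SAGA subunit of the USP22 module, at -0.64 ± 0.17 (SE, limma adjusted p = 0.0468). ENY2 of the same module was at 0.32 ± 0.12 and USP22 itself at -0.14 ± 0.12, neither past the threshold. Of the other deubiquitinases 9 were higher and 20 lower on the deposited scale, where 48.2% of all kept probe sets were higher. The median of these deubiquitinases was -0.07, and ZRANB1 was lowest at -0.40 ± 0.12 (limma adjusted p = 0.0802). UBA1 was at 0.03 ± 0.11 and UBB at 0.02.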

How the data were processed

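Total RNA was measured on 6 one-colour arrays, 2 per group, grouped by the labels' descriptions. The authors deposited linear intensities with 1 value for each probe set. Their software is not given in the sources used here, and the trimmed mean, with 2% off each end, was 150.02 on every array. Without the 62 control probe sets, values entered as log2(intensity + 9.04), the offset being the pooled lower quartile, which makes changes of dim probe sets smaller, and kept where the mean reached the median of all means. limma 3.58.1 in R 4.3.3 fitted all 27307 kept probe sets at once (lmFit, eBayes with an intensity trend). The groups shared 3 residual degrees of freedom, with 7.03 from the prior. The replicate number was fitted beside the groups, with 2 and 10.49. Two-sided p-values were adjusted by Benjamini-Hochberg over all kept probe sets and a threshold of 0.05. Named genes were all called members and, per comparison and family, the 4 with the largest statistic in each direction by brightest probe set. The 3 probe sets with an unadjusted p under 0.05, the USP13 pair, USP30 and those named beside them were added after their values were seen. Members, role lists and pathway lists were chosen with earlier results of these data known. Alternatives covered scaling, offset, filter, prior, replicate block, the arrays fitted and the summary per gene. The number of arrays limits the precision.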

Additional observations from a re-analysis of the deposited data

How the results depend on the processing

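No member was called between groups under any alternative run other than an unadjusted p under 0.05, which gave 1 UBE2 and 1 USP probe set for hIMP1 wt minus mock, 2 UBE2 for hIMP1 Dmut minus mock and 1 UBE2 for hIMP1 wt minus hIMP1 Dmut (281, 387 and 337 of all), and for the replicate number 15 UBE2 and 13 USP (6082 of all). The replicate block, with 2, 2 and 0 probe sets called in all and 0 members, changed no call between groups. Deviations of same-numbered arrays correlated at 0.46, 0.20 and 0.22, and same-numbered arrays were more alike than any other pair. The main group fit has no term for the number, so its standard errors include differences between numbers. For USP36 220370_s_at in hIMP1 wt minus mock the SE was 0.46, with changes of 0.01 and 0.02 within the numbers. For the replicate number, there were 1 UBE2 and 3 USP calls under median scaling and under no filter (558 of all), and 0 and 0 without an intensity trend (0 of all). Leaving out 1 array gave 0 to 18 UBE2, 0 to 19 USP and 291 to 5472 probe sets in all. The calls over all probe sets for hIMP1 wt minus mock were 1 with the offset at the 10th percentile, 1 above the 75th percentile, 0 with the 4 arrays alone, 0 without trend and 0 to 3 with an array left out, and for hIMP1 Dmut minus mock 1 above the 75th percentile, 0 without trend and 0 to 2 with an array left out. Under median scaling the UBE2 and USP medians were 0.055 and 0.030 for hIMP1 wt minus mock, 0.148 and 0.059 for hIMP1 wt minus hIMP1 Dmut and 0.045 and 0.046 for the replicate number, and the USP median of hIMP1 Dmut minus mock was -0.049. With the mean of a gene's probe sets the USP median of hIMP1 wt minus mock was -0.048 and the UBE2 median of hIMP1 wt minus hIMP1 Dmut 0.067, which was -0.001 with no filter. With the brightest probe set, the USP medians of hIMP1 wt minus mock and hIMP1 wt minus hIMP1 Dmut were 0.012 and -0.015, and the UBE2 median of the replicate number 0.034. With an array left out, the UBE2 and USP medians ranged over -0.048 to 0.027 and -0.055 to 0.041 (hIMP1 wt minus mock), -0.103 to 0.013 and -0.016 to 0.065 (hIMP1 Dmut minus mock), -0.030 to 0.074 and -0.080 to -0.016 (hIMP1 wt minus hIMP1 Dmut), and -0.080 to -0.046 and -0.091 to -0.028 (replicate number). UBE2Z for hIMP1 Dmut minus mock was -0.01 under median scaling and -0.13 to 0.25 with an array left out. Other genes that turned with an array left out ranged as follows. The runs in which they turned also left the replicate numbers unequal between the groups compared. Within both numbers UBE2L6, USP11 and UBE2T kept their sign, as did UBE2N at 0.06 (number 1) and 0.09 (number 2). For hIMP1 wt minus mock, UBE2L6 lay at -0.14 to 0.71, UBE2N at -0.05 to 0.20 and USP11 at -0.35 to 0. For hIMP1 Dmut minus mock, UBE2O lay at -0.23 to 0.76, UBE2T at -0.59 to 0.10 and USP32P2 at -0.09 to 0.71. For hIMP1 wt minus hIMP1 Dmut, USP20 lay at -1.41 to 0.10, USP22 at -0.37 to 0.04, UBE2F at -0.30 to 0.01, UBE2Q2P16 at -0.38 to 0.01 and USP32P2 at -0.63 to 0.18. The causes were not tested.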
